A study of Homo sapiens with 6 samples.

Results

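Matrix metalloproteinases (MMPs) and tissue inhibitors of metalloproteinases (TIMPs) were examined in RNA-seq libraries of HTori-3.1, an immortalised human thyroid cell line labelled as normal thyroid. The 10 genes taken by symbol were MMP1, MMP2, MMP3, MMP7, MMP10, MMP14, MMP15, TIMP1, TIMP2 and TIMP3, out of 22354 loci in the table of counts. All 10 were listed, and 7 of them passed the filter on low counts; MMP1, MMP7 and MMP10 did not. The control group held 3 libraries of wild type cells, and the other group held 3 libraries labelled BMAL1 knockout, from cells given Cas9 and an sgRNA against BMAL1 by lentivirus and selected with puromycin. Both groups had received 2 μM etoposide, which breaks DNA by trapping a topoisomerase, so a response to etoposide itself could not be read. The exposure is given as 24 h in the methods and as 12 h in the treatment label. The comparison asks which of these genes differ when BMAL1, an activator of the circadian clock, is targeted in cells given etoposide to induce senescence. Whether the cells of these libraries were senescent was not tested here. Single clones were picked for the knockout, so that a difference between clones and an effect of BMAL1 cannot be told apart. Nor can effects of the virus, Cas9 or puromycin, which the paper's methods do not state for the controls. The sources used here do not say whether libraries of a group came from separate cultures, and p-values then measure the spread between these libraries, which may be technical.

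Total counts were 26893063, 27029060 and 28513703 in control replicates 1 to 3, and 43148059, 29860233 and 43563391 for knockout replicates 1 to 3. BMAL1, the targeted gene (ENSG00000133794.20; chromosome 11 of hg38, 13276652 to 13387266, forward strand), had more transcript in the libraries labelled knockout. An edit by Cas9 need not lower the transcript, and whether the columns carry the right labels cannot be settled from these counts. The paper's methods state that the knockout was checked by western blot, which measures protein. Controls had 304, 326 and 409 counts of it, and the other group 764, 603 and 860. In CPM (counts scaled to TMM-adjusted library totals) the means were 12.7 ± 1.70 and 19.0 ± 0.987 (SD, n = 3 each). The log2 fold change was 0.58 (standard error 0.11; edgeR quasi-likelihood fit, Benjamini-Hochberg adjusted p = 0.0204), and with 1 library left out at a time it was called in 2 of 6 fits. BMAL1 shares 421 exonic bases with a noncoding RNA on the opposite strand. NR1D1, a gene that BMAL1 activates, was lower by contrast (log2 fold change -1.25, standard error 0.14, edgeR Benjamini-Hochberg adjusted p = 0.00146); it shares 473 exonic bases with THRA on the opposite strand. Every direction given here is that of the libraries labelled BMAL1 knockout over control.

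Control replicate 3 and knockout replicate 1 stood apart from the other libraries of their groups. Across genes, the deviation of a library from its group mean correlated with GC content at -0.59 in control replicate 3 and -0.56 in knockout replicate 1 (Spearman, a description over genes), against 0.38 to 0.46 in the other 4 libraries. Counts of knockout replicate 1 differed from those of knockout replicates 2 and 3 by 31.0 and 45.0 times the variance of counting, where replicates 2 and 3 differed by 7.43 times. Member values are therefore given with and without these libraries where they matter.

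The thyroid label was checked against markers. Of 9 follicular markers, PAX8, FOXE1 and HHEX passed the low-count filter, PAX8 being the most abundant, and the list summed to 182, 183 and 212 CPM in the controls and to 141, 158 and 183 CPM in the libraries labelled BMAL1 knockout. NKX2-1 had 0 counts in every library, TSHR and DUOX2 averaged under 0.1 CPM, and TG reached at most 13 counts. Log2 fold changes were -0.26 for FOXE1, -0.28 for PAX8 and 0.05 for HHEX, none with an edgeR Benjamini-Hochberg adjusted p under 0.05. PAX8 was at -0.18 without control replicate 3 or knockout replicate 1 and at -0.43 without knockout replicate 3. The cells thus carried PAX8, FOXE1 and HHEX but few or no reads of NKX2-1, TG, TSHR and DUOX2.

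MMPs are zinc-dependent proteases that cleave collagens, laminins and other matrix proteins, and also release growth factors and receptors from the cell surface. They are made as inactive proenzymes and are switched on by removal of the propeptide, by plasmin, furin or other MMPs, while TIMPs bind the active site and block it. MMP1, MMP3, MMP7 and MMP10 are secreted enzymes whose genes are known to respond to AP-1, and secreted MMPs and TIMPs belong to what senescent cells release.

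Part of the family shares a place in the genome. MMP7, MMP10, MMP1 and MMP3 lie on the reverse strand of chromosome 11 in a cluster of 9 MMP genes from 102520508 to 102955732 (hg38), a span of 435 kb. MMP2 and MMP15 lie on chromosome 16 (55389700 to 55506691 and 58025754 to 58046901), MMP14 on chromosome 14 (22836560 to 22849041), TIMP1 on chromosome X (47582408 to 47586789), TIMP2 on chromosome 17 (78852977 to 78925387) and TIMP3 on chromosome 22 (32801705 to 32863041). The counting is not stated to use strand, so reads of overlapping genes cannot be told apart. WTAPP1, a pseudogene on the opposite strand, shares 223 exonic bases with MMP1 and 32 with MMP3; MMP2 shares 174 with an unconfirmed transcript on its own strand; TIMP2 shares 224 with CEP295NL, which averaged 0.806 CPM, and 367 with an antisense RNA.

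The set of RefSeq promoters used here (GRCh38.p14) held 6 members, MMP7, MMP10, MMP14, MMP15, TIMP1 and TIMP3. MMP1, MMP2, MMP3 and TIMP2 had no entry in that set. The 250 bases before the start were searched on both strands for the AP-1 motif TGANTCA and the E-box CACGTG, the motif of BMAL1 and CLOCK. AP-1 matched in 2 of the 6 members and in 6.57% of 35116 promoters of that length, and the E-box matched in 0 of the 6 and in 6.34% of promoters. In MMP7 and MMP10 the AP-1 match lay at the same place, from 67 to 61 bases before the start. These promoters are printed because they belong to the members with the fewest reads, beside that of MMP14, an expressed member with no match; capitals mark the AP-1 match.
MMP7 (chr11:102530748-102530997, reverse strand): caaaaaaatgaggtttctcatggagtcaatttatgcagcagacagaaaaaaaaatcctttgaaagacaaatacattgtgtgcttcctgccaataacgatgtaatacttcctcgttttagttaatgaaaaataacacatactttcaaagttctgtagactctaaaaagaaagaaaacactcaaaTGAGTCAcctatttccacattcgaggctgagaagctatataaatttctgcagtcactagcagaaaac
MMP10 (chr11:102780629-102780878, reverse strand): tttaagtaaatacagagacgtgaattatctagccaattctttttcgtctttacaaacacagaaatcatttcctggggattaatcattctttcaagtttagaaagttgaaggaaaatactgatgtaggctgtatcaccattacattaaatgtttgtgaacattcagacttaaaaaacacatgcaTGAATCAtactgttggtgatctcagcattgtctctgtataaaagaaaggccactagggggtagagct
MMP14 (chr14:22836335-22836584, forward strand): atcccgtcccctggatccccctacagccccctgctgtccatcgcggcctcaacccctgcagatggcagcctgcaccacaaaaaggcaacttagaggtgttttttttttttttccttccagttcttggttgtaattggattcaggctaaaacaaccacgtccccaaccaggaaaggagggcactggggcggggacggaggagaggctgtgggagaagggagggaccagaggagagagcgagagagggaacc
The upstream stretch of MMP7 is 33.6% G and C, that of MMP10 is 34.4% and that of MMP14 is 56.8%. A match is a run of letters and not a shown site of binding.

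At an adjusted p under 0.05, edgeR called 0 of the 7 tested members, and 0 were called by DESeq2 and 0 by limma-voom. Over all 14860 loci tested, 161 (1.08%) were called higher and 212 (1.43%) lower, 2.51% in either direction. With scaling by library size alone the calls were 185 and 155. At an unadjusted p under 0.05, 2 members, MMP2 and MMP3, were lower and 0 were higher, where 7.78% of all loci tested were lower and 9.08% higher at that threshold. CPM of the groups did not overlap for the same 2 of the 7 tested members, both lower, where 11.5% of tested loci lay lower without overlap and 11.8% higher. Of the 7, 6 had a log2 fold change below 0, with a median of -0.17 beside 0.01 over all loci tested. In bulk RNA, fewer cells of a kind and less RNA per cell cannot be told apart.

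Among the secreted enzymes of the chromosome 11 cluster, MMP3 (stromelysin-1, which degrades proteoglycans and activates other MMPs) had 30, 24 and 43 counts in the controls and 36, 10 and 13 in the group labelled BMAL1 knockout. This amounts to 1.12, 0.898 and 1.54 CPM in the controls and 0.843, 0.328 and 0.293 CPM in the other group. Knockout replicate 1 lay just under the lowest control, while knockout replicates 2 and 3 lay far below all controls, so the groups did not overlap. The log2 fold change was -1.25 (standard error 0.41, 95% interval -2.15 to -0.35; edgeR unadjusted p = 0.0104 and Benjamini-Hochberg adjusted p = 0.141; two-sided exact permutation p = 0.1, the smallest that 3 against 3 libraries can give). Without knockout replicate 1 it was -1.93 (standard error 0.41) and MMP3 was called (edgeR Benjamini-Hochberg adjusted p = 0.0277). In the other 5 fits that left out a library it was not; it was -1.02 without control replicate 3 and -0.97 without knockout replicate 3 (edgeR Benjamini-Hochberg adjusted p = 0.332 and 0.283). The adjusted p over all 18 alternatives ranged from 0.0277 to 0.332.

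MMP1 (interstitial collagenase, which cuts fibrillar collagen) had 8, 8 and 12 counts in the controls and 0, 0 and 7 in the other group, or 0.298, 0.299 and 0.429 CPM against 0, 0 and 0.158 CPM. The highest library labelled BMAL1 knockout, replicate 3, stayed below the lowest control, and no read was seen in the other pair. Summed over libraries, 28 counts in the controls gave 0.343 CPM (exact 95% Poisson interval 0.228 to 0.496), and 7 counts in the other group gave 0.0596 CPM (0.0239 to 0.123). These intervals do not overlap, but they cover counting error only, and reads without molecular identifiers are not independent molecules. MMP1 failed the filter; without that filter the fit put it at -2.50 on the log2 scale (standard error 0.98, edgeR Benjamini-Hochberg adjusted p = 0.246), and 2 of the 6 counts being 0, that value depends on the fit's prior count. Without knockout replicate 3, the library with the 7 counts, the group labelled BMAL1 knockout held 0 counts. The fitted value there, -6.42, also depends on the prior count and is no exact fold change (edgeR Benjamini-Hochberg adjusted p = 0.0581). Without knockout replicate 1 the value was -1.91 (edgeR Benjamini-Hochberg adjusted p = 0.349).

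MMP7 (matrilysin, an enzyme of epithelial cells) had 0 counts in all controls, 9 in knockout replicate 1 and 0 in the remaining libraries. The value rests on knockout replicate 1 alone. MMP10 (stromelysin-2) had 2 counts in control replicate 3 and 0 in every other library. Group sums of MMP7 allow up to 0.0452 CPM in the controls and lie between 0.0350 and 0.145 CPM in the other group (exact 95% Poisson intervals), and those of MMP10 allow up to 0.0886 and 0.0314 CPM. For both genes the intervals of the groups overlap, and each rests on a single library, so no difference between the groups is claimed. The floor of 3 counts over a group stands at 0.0368 CPM for the controls and 0.0255 CPM for the libraries labelled BMAL1 knockout.

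**Figure D1:**
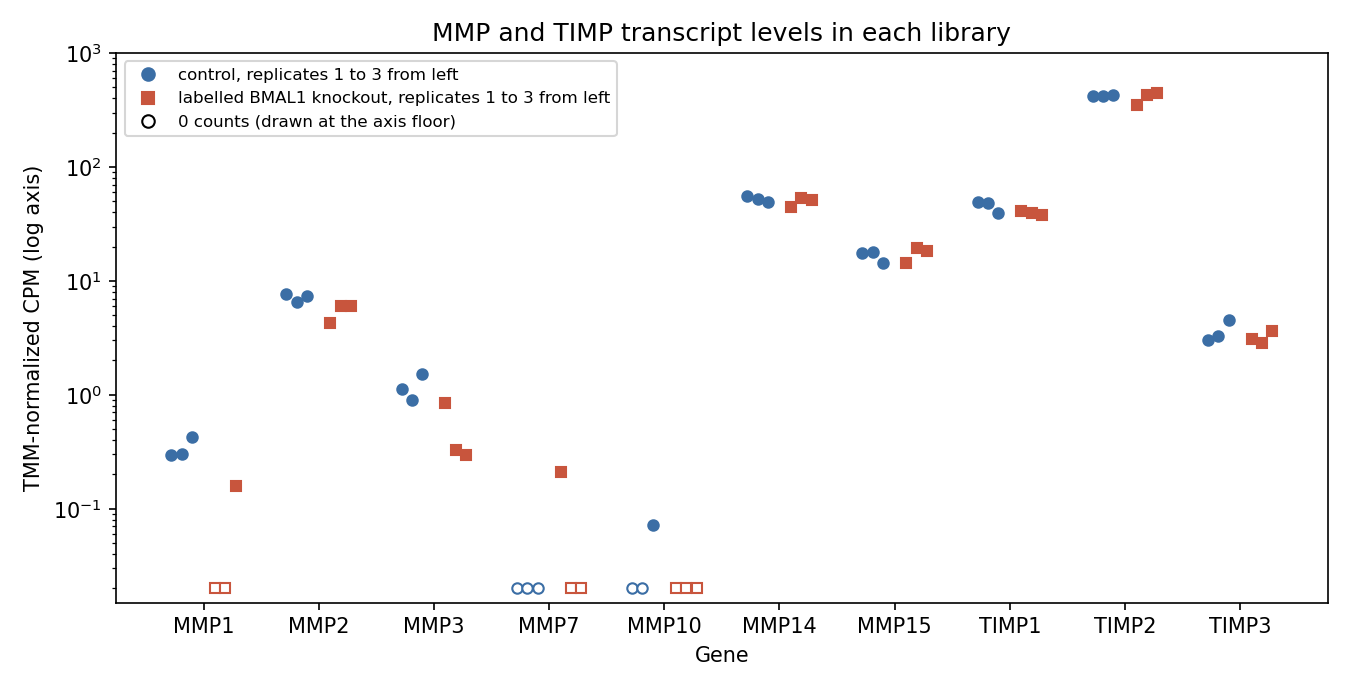
CPM of the 10 genes in each library on a log axis, circles for control and squares for the libraries labelled BMAL1 knockout, replicates 1 to 3 from left; open marks at the bottom are libraries with 0 counts. MMP2 and MMP3 lie lower without overlap between the groups, as did 11.5% of all loci tested. So does MMP1, which failed the low-count filter, and TIMP2 is the most abundant at 352 to 443 CPM.

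MMP2 (gelatinase A, which digests denatured and basement membrane collagen) stood at 7.72, 6.58 and 7.43 CPM in the controls and at 4.29, 5.96 and 6.07 CPM in the knockout-labelled group. All 3 of the latter lay below all controls, and knockout replicate 1 was the lowest of the 6. Its log2 fold change was -0.41 (standard error 0.16, 95% interval -0.76 to -0.07; edgeR unadjusted p = 0.0235 and Benjamini-Hochberg adjusted p = 0.210). Without knockout replicate 1 the log2 fold change was -0.27 (edgeR Benjamini-Hochberg adjusted p = 0.346).

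The membrane-anchored members MMP14 and MMP15 were the most expressed of the MMPs looked up. MMP14, which cleaves collagen at the cell surface and activates pro-MMP2 in a complex with TIMP2, stood at 55.7, 52.7 and 49.4 CPM in the controls and at 44.8, 53.7 and 51.5 CPM in the libraries labelled BMAL1 knockout. The groups overlapped, with knockout replicate 1 the lowest. For MMP14 the log2 fold change was -0.07 (standard error 0.092, 95% interval -0.27 to 0.13; edgeR Benjamini-Hochberg adjusted p = 0.744). MMP15, a close relative of MMP14, stood at 17.4, 17.8 and 14.4 CPM against 14.5, 19.3 and 18.1 CPM. Control replicate 3 and knockout replicate 1, the libraries that stood apart, were both low, and the groups overlapped. For MMP15 the log2 fold change was 0.06 (standard error 0.13, 95% interval -0.21 to 0.34, edgeR Benjamini-Hochberg adjusted p = 0.853). It changed sign without control replicate 3, to -0.03, and without knockout replicate 2, to -0.02. Without knockout replicate 1 it was 0.18.

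Among the inhibitors, TIMP1, which blocks most secreted MMPs, stood at 49.5, 48.4 and 39.1 CPM in the controls and at 41.4, 39.2 and 37.8 CPM in the libraries labelled BMAL1 knockout. Control replicate 3 fell within the range of the other group. The log2 fold change was -0.21 (standard error 0.10, 95% interval -0.43 to 0.01; edgeR Benjamini-Hochberg adjusted p = 0.317). Without control replicate 3 it was -0.31 (standard error 0.079, edgeR Benjamini-Hochberg adjusted p = 0.116).

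TIMP2, which both inhibits MMPs and serves as the receptor for pro-MMP2 on MMP14, stood at 422, 419 and 430.4 CPM in the controls and at 352, 432 and 443 CPM in the libraries labelled BMAL1 knockout. Knockout replicate 1 was below all controls and knockout replicates 2 and 3 were above them. For TIMP2 the log2 fold change was -0.05 (standard error 0.090, 95% interval -0.25 to 0.15; edgeR Benjamini-Hochberg adjusted p = 0.827), and without knockout replicate 1 it was 0.04. TIMP3, an inhibitor that binds to the matrix and also blocks ADAM proteases, stood at 3.02, 3.29 and 4.50 CPM against 3.07, 2.85 and 3.66 CPM. Its groups overlapped, with control replicate 3 the highest. The log2 fold change was -0.17 (standard error 0.19, 95% interval -0.59 to 0.25; edgeR Benjamini-Hochberg adjusted p = 0.712), and without control replicate 3 it was 0.02.

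Levels of different genes were compared as CPM per kilobase of exon. Averaged over the 6 libraries, TIMP2 stood at 67.0, TIMP1 at 29.4, MMP14 at 11.1, MMP15 at 3.997, MMP2 at 1.35, TIMP3 at 0.739, MMP3 at 0.451, MMP1 at 0.0721, MMP7 at 0.0151 and MMP10 at 0.00677 on this scale. The order from TIMP2 down to MMP3 held in every library, and the ranges of TIMP2, TIMP1, MMP14 and MMP15 did not overlap. The range of MMP2 (0.911 to 1.64) overlapped that of TIMP3 (0.620 to 0.979), and that of TIMP3 overlapped MMP3 (0.158 to 0.828). MMP1, MMP7 and MMP10 overlapped among themselves.

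The summed level of the TIMPs in the family was 4.65 ± 0.146 times that of the MMPs in the controls and 4.37 ± 0.152 times in the libraries labelled BMAL1 knockout (SD, n = 3 each, per kilobase, all 27 family genes listed). These ratios ran from 4.48 to 4.76 and from 4.23 to 4.54 and overlapped. MMP14 made up 52.5 ± 0.253% of the summed MMP level in the controls and 50.2 ± 0.873% in the other group, without overlap (52.2% was the lowest control and 51.0% the highest of the others). The ratio of the MMP14 to the MMP2 level was 7.42 ± 0.693 and 9.48 ± 1.04, also without overlap. In that ratio, MMP14 levels overlapped between the groups, and MMP2 was lower without being called. Neither the share nor the ratio was tested, and 11.5% of single loci tested lay lower and 11.8% higher without overlap. TIMP2 stood at 6.02 ± 0.433 times the MMP14 level in the controls and at 6.08 ± 0.288 times in the libraries labelled BMAL1 knockout.

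**Figure D2:**
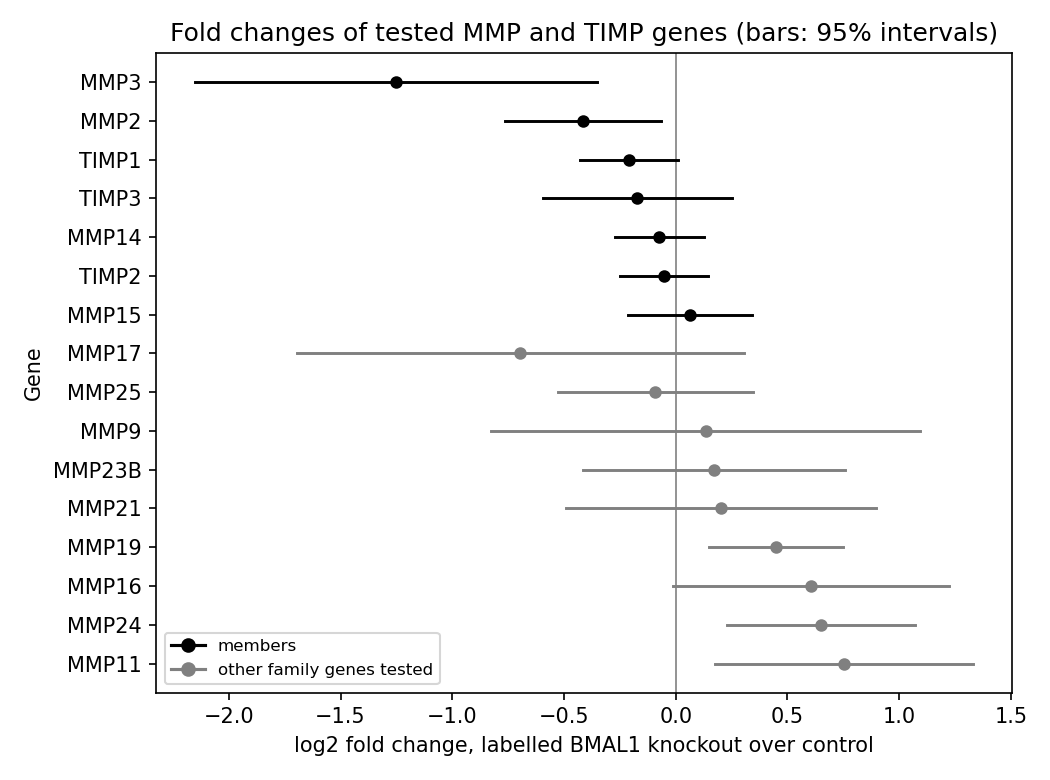
Log2 fold changes of the 7 tested members (black) and 9 other tested MMP genes (grey), libraries labelled BMAL1 knockout over control, with 95% intervals as bars. MMP3 at -1.25 and MMP2 at -0.41 are the lowest members, while MMP11, MMP24, MMP16 and MMP19 lie between 0.45 and 0.75 and MMP17 at -0.70.

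The rest of the family was looked up by 18 symbols, of which 17 were listed and 9 tested. None was called, and 3 had an unadjusted p under 0.05, all higher (edgeR), beside 9.08% of all loci tested. Log2 fold changes lay above 0 for 7 and below for 2, MMP17 at -0.70 and MMP25 at -0.09. MMP24, a membrane enzyme, was at 0.65 on the log2 scale (edgeR Benjamini-Hochberg adjusted p = 0.105), but shares 806 exonic bases with MMP24OS on the opposite strand. MMP19, which shares 821 exonic bases with TMEM198B on the opposite strand, was at 0.45 (edgeR Benjamini-Hochberg adjusted p = 0.114), MMP11 at 0.75 (0.169) and MMP16 at 0.61 (0.305). MMP11 was at 0.48 without knockout replicate 3, and MMP16 was at 1.02 without control replicate 3 and 0.36 without control replicate 2. With each library's GC trend removed, MMP24 and MMP19 were called higher (log2 fold changes 0.67 and 0.47, edgeR Benjamini-Hochberg adjusted p = 0.0358 and 0.0374). That fit called 496 of 13578 loci higher, against 161 of 14860. In the main fit the median log2 fold change of the 9 tested genes of this list was 0.20, against -0.17 for the 7 members and 0.01 for all loci.

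Of the 27 listed family genes, 12 averaged at least 1 CPM: 0 of the 9 in the chromosome 11 cluster and 12 of the 18 elsewhere. MMP3 was the most abundant gene of the cluster, with 1.54 CPM as its highest library. Within 2 Mb of the cluster lay 16 other listed genes, 11 of them tested, with 5 log2 fold changes above 0 and 6 below and a median of -0.01. Of the 11 tested, 1 was called lower and 0 higher, where 1.43% of all loci tested were called lower and 1.08% higher. It was BIRC3, an inhibitor of apoptosis, which fell from 44.6 ± 0.987 to 31.0 ± 3.40 CPM (SD, n = 3 each). Its log2 fold change was -0.53 (edgeR Benjamini-Hochberg adjusted p = 0.0149). BIRC3 was called in 3 of 6 fits with a library left out, with values from -0.60 to -0.44. 

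**Figure D3:**
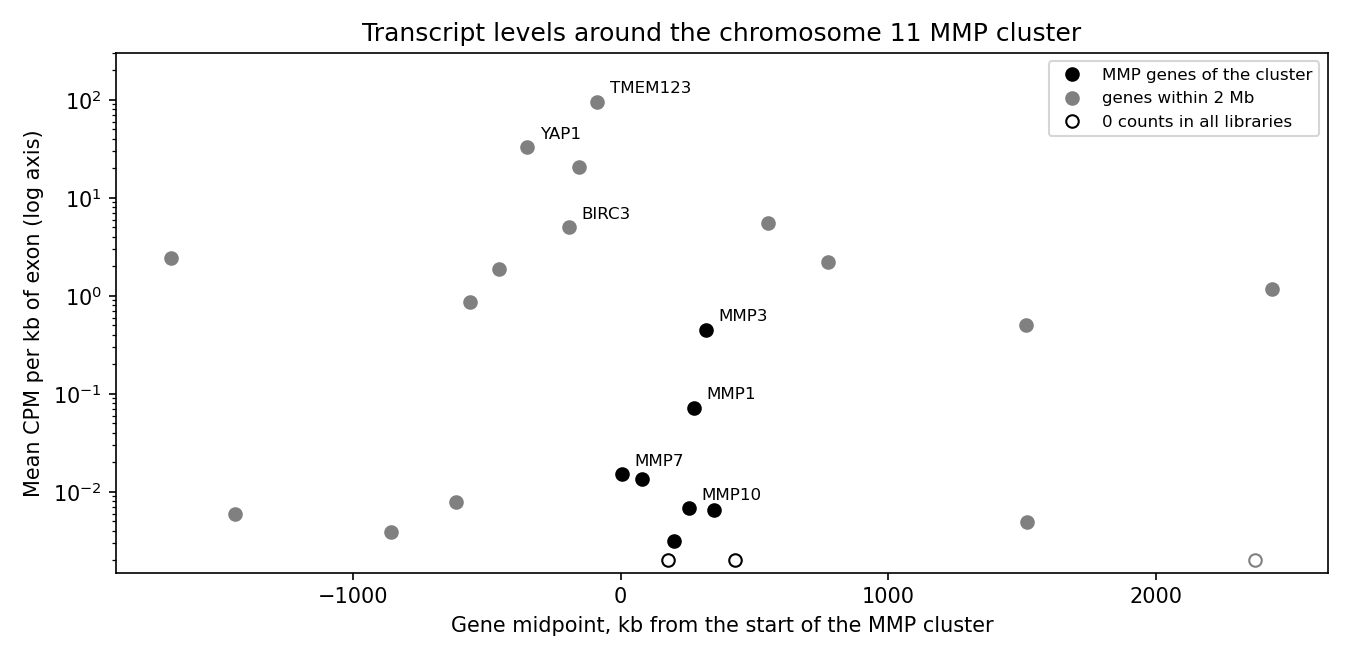
Mean CPM per kilobase of exon, on a log axis, by distance of each gene's midpoint from the start of the chromosome 11 cluster; black marks are MMP genes, grey marks other genes within 2 Mb, and open marks genes with 0 counts. MMP3 at 0.451 is the highest of the cluster.

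Genes most like MMP3 in pattern (Pearson r of log2 CPM over the 6 libraries, 12479 candidates) were LEKR1 (0.996), PRNP (0.995), WDR19 (0.994), NDUFV3 (0.988) and GSPT1 (0.988). None of them was called, and with so many candidates such values describe these libraries only.

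Genes that act on the MMPs were counted by role, to be read beside the 1.43% of all loci called lower and 1.08% called higher. Of 6 tested activators, such as the plasminogen system and furin, 1 was lower and 0 higher at an adjusted p under 0.05 (edgeR, Benjamini-Hochberg), with a median log2 fold change of -0.21. It was PLAUR, the receptor for urokinase, lower by 0.42 on the log2 scale (standard error 0.099; edgeR Benjamini-Hochberg adjusted p = 0.0463, and 0.0505 in the newer form of the same fit). With 1 library left out it was called in 2 of 6 fits, with log2 fold changes from -0.50 to -0.36. Of 6 tested inhibitors and receptors, 1 was lower and 0 higher. It was CD44, a hyaluronan receptor that anchors MMP14, lower by 0.45 on the log2 scale (standard error 0.077, edgeR Benjamini-Hochberg adjusted p = 0.0117). CD44 was called in 3 of those 6 fits, with log2 fold changes from -0.48 to -0.40.

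Of 15 tested transcription factors and inducers, 5 were lower and 0 higher, where 1.43% of all loci tested were called lower; 6 log2 fold changes lay above 0 and 9 below, with a median of -0.15. FOSL1, an AP-1 subunit, fell from 163 ± 10.95 to 114 ± 4.05 CPM (SD, n = 3 each; log2 fold change -0.52, edgeR Benjamini-Hochberg adjusted p = 0.00505) and was called in all 6 fits that left out a library. The other AP-1 subunits tested lay above 0 and were not called: FOS at 0.18, FOSB at 0.05, FOSL2 at 0.09, JUN at 0.08, JUNB at 0.29 and JUND at 0.08 (log2). JUNB was called higher without knockout replicate 1. ETV4, an ETS factor, fell by 0.64 on the log2 scale, RUNX2 by 0.43, ETV5 by 0.33 and ETS2 by 0.33 (edgeR Benjamini-Hochberg adjusted p = 0.0102, 0.0279, 0.0387 and 0.0492). ETV4 was called in 5 of those fits, and RUNX2, ETV5 and ETS2 in 1 each, without knockout replicate 1. Over those fits the log2 fold change of RUNX2 ranged from -0.45 to -0.41. That of ETV5 ranged from -0.34 to -0.31 and that of ETS2 from -0.37 to -0.30. With the replicate block RUNX2, ETV5 and ETS2 were not called, and with library size only ETV5 and ETS2 were not. ETS2 had an edgeR Benjamini-Hochberg adjusted p of 0.0524 in the newer form of the fit.

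Of 15 tested ADAM and ADAMTS proteases, relatives of the MMPs, 1 was higher and 1 lower, beside 1.08% and 1.43% of all loci tested. ADAM33 rose by 0.86 and ADAM8 fell by 0.96, both on the log2 scale (edgeR Benjamini-Hochberg adjusted p = 0.00564 and 0.0137). Of 14 tested matrix substrates, 3 were lower and 0 higher (all loci: 1.43% and 1.08%), among them TNC, encoding tenascin-C, by 0.70 and LAMB3, encoding a laminin chain, by 0.49 on the log2 scale (edgeR Benjamini-Hochberg adjusted p = 0.00193 and 0.0168). TNC and ADAM33 were called in all 6 fits that left out a library, and ADAM8 and LAMB3 in 4. Over these fits ADAM8 ranged from -1.09 to -0.86 and LAMB3 from -0.55 to -0.41 on the log2 scale.

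**Figure D4:**
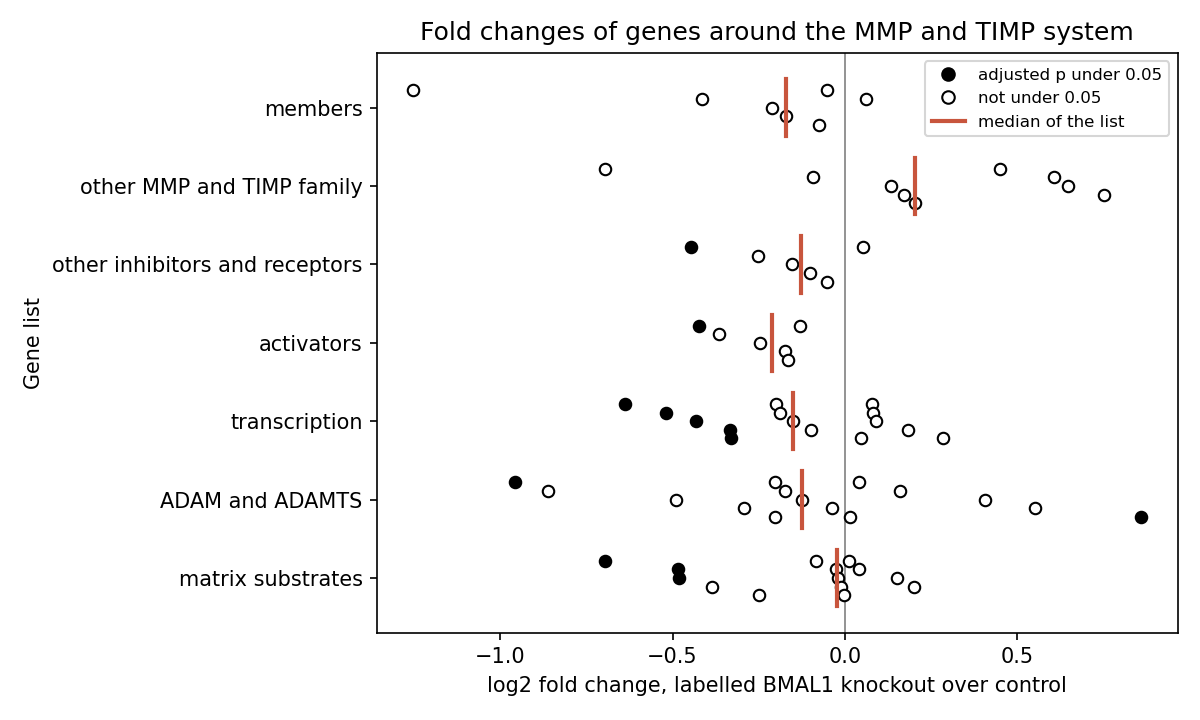
Log2 fold changes of tested genes by list, libraries labelled BMAL1 knockout over control; filled marks have an adjusted p under 0.05 (edgeR, Benjamini-Hochberg) and red bars are list medians. Filled marks lie below 0 except ADAM33 at 0.86, and 0 members are filled.

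Markers of other cell types were read beside these genes. Epithelial markers (5 of 6 tested, KRT8 the most abundant) summed to 2990, 3044 and 2897 CPM in the controls and to 2539, 2482 and 2563 CPM in the libraries labelled BMAL1 knockout, and KRT18, which shares 525 exonic bases with KRT8, was lower (log2 fold change -0.50, edgeR Benjamini-Hochberg adjusted p = 0.00583). With 1 library left out KRT18 was called in 5 of 6 fits, with log2 fold changes from -0.56 to -0.46. The sum was carried by KRT8, KRT18 and KRT7. KRT8 was at -0.28 without overlap between the groups (edgeR Benjamini-Hochberg adjusted p = 0.0507); KRT7 at 0.10, KRT19 at 0.23 and EPCAM, with few reads, at 1.57 had log2 fold changes above 0 and were not called. Fibroblast markers (3 of 8 tested) were carried by COL1A1 at 860 ± 77.9 and 859 ± 141 CPM (SD, n = 3 each), with DCN and LUM at 0 counts and COL1A2 and COL3A1 at most at 2; THY1, PDGFRB and COL1A1 were not called. Endothelial markers summed to 1.83 to 2.21 CPM in the controls and to 1.25 to 1.72 CPM in the other group, and VWF and CDH5 were not called. Immune markers, CD68 the most abundant, summed to 17.9 to 19.7 CPM in the controls and to 12.4 to 14.1 CPM in the other group; CD3E and MS4A1 had 0 counts, and PTPRC was lower (log2 fold change -1.43, edgeR Benjamini-Hochberg adjusted p = 0.00127), while CD14 was at 0.99 on the log2 scale and not called. Epithelial, endothelial and immune sums were lower in the group labelled BMAL1 knockout, as were MMP2 and MMP3, while the fibroblast sums overlapped. Of single loci tested, 11.5% lay lower without overlap in that group. What part the marker sums have in the MMP values was not tested.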

How the data were processed

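RNA was sequenced from 6 libraries as paired-end reads. The authors trimmed away adapter and poor-quality reads, aligned to hg38 and deposited unscaled integer gene counts from uniquely placed reads; fastp 0.20.1 and HISAT2 2.0.4 are named, with the mapping credited to the first and the counting to the second. Annotation and strandedness are not given in the sources used here. Columns were matched to samples by name.

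Counts were fitted with edgeR 4.0.16 in R 4.3.3 (TMM, default low-count filter, robust quasi-likelihood fit, 2-sided test), and p-values were adjusted by Benjamini-Hochberg over the 14860 loci kept. A call is an adjusted p under 0.05. Intervals are 95%. CPM use the TMM-scaled totals; coordinates, exon lengths and overlaps come from GENCODE, which held 20018 of the 22354 names. The biological coefficient of variation was 0.108. The fits were also run on simulated counts, whose outcome is not reported here.

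The members and gene lists were chosen with earlier results of these data known. So was one check of the fit: the package's default form called 161 loci higher and 212 lower, an earlier analysis of these libraries had given other counts, and 8 configurations (form of the quasi-likelihood fit, library sizes after filtering, robust dispersion) were then compared to find the difference. It lay in the form of the fit alone: the newer form called 150 and 202. The newer form was then set for a time because its counts matched. This was undone, since a match is no ground for a setting; the default form, which was fitted first, is used here, and the newer form was added as an alternative after the data were seen.

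Genes named by rule are the 10 members, called genes near the chromosome 11 cluster, BMAL1 and NR1D1. So are the 5 genes most like MMP3, the member with the smallest p. Of each other list, up to 8 with an adjusted p under 0.05 are named, or else the 4 with the smallest p. Outside this rule, list members are also named that went the other way, carried a sum or had few reads. Alternatives were median-of-ratios factors, library size only, no filter, a floor of 10 counts per library, blocking on replicate number, each library left out in turn, DESeq2 1.42.0, limma-voom (limma 3.58.1), thinning to the smallest total, removal of GC trends (GC known for 91.4% of loci kept), an adjusted p under 0.1, a fold change over 2 with an unadjusted p under 0.01, and longest-transcript lengths. Protein motifs were planned and were not analysed here. Among the listed genes, 1 called matrix substrate and 1 thyroid marker are counted in their lists but not reported here.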

Additional observations from a re-analysis of the deposited data

How the results depend on the processing

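No tested member was called under 17 of the 18 alternatives; without knockout replicate 1, MMP3 was, so that across the fits leaving out a library 0 to 1 members were called lower. Over those fits, genes called higher ranged from 46 (without control replicate 2) to 293 (without knockout replicate 1) and lower from 67 to 340, against 161 and 212; listed genes outside the members from 1 to 5 higher and from 4 to 17 lower, against 1 and 13; genes near the cluster from 0 to 1 lower. BMAL1 ranged from 0.50 to 0.70 (log2) and had an adjusted p over 0.05 in 4 of the 6 (edgeR, Benjamini-Hochberg). Small log2 fold changes ranged widely: MMP14 from -0.13 to -0.0018, and across 0 MMP15 from -0.026 to 0.18, TIMP2 from -0.11 to 0.044, TIMP3 from -0.29 to 0.023, HHEX from -0.05 to 0.15 and COL1A1 from -0.093 to 0.13. COL1A1 was also above 0 with library size only (0.030), no filter (0.0032), at least 10 counts (0.0024), thinning (0.0013) and GC removal (0.018).

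DESeq2 called 256 higher and 379 lower, GC removal 496 and 597, an adjusted p under 0.1 362 and 389, and the fold change rule 94 and 48. Listed genes called higher were 2 without the filter, 2 with DESeq2, 5 with GC removal, 2 at 0.1 and 0 by the fold change rule, which called 1 lower, 0 near the cluster, and did not pass BMAL1 at 0.58. The newer form of the quasi-likelihood fit, chosen after seeing the data, called 150 and 202, with 0 members; PLAUR and ETS2 were no longer called. Both were also lost with library size only, limma-voom and the replicate block, ETV5 with library size only, thinning and the block, ETS2 with thinning and RUNX2 with the block. With longest-transcript lengths the TIMP to MMP ratio was 6.18 and 5.85. Where fewer libraries or another threshold does not by its construction account for a change, the cause was not tested.

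Same-numbered replicates did not deviate together (correlations -0.15, -0.00078 and -0.046), and no library correlated best with its own number in the other group. The numbers were therefore not taken as pairs, and with the replicate block the calls were 132 and 145. MMP1, MMP7 and MMP10 had at most 12 counts in a library, and whether depth or low expression accounts for this was not tested.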
